A study of Mus musculus with 9 samples.

Results

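The costimulatory receptors and ligands Cd28, Icos, Tnfrsf9, Tnfrsf4, Tnfrsf18, Cd27, Cd40lg, Cd86, Cd80 and Cd40 were examined in tumor-infiltrating CD8+ T cells of mice given anti-PD-1. They are 10 of the 32976 genes counted, were taken as a fixed list of gene names, and were matched to Ensembl identifiers through the mouse annotation, which found all 10. RNA was sequenced from T cells sorted with a tetramer of GSW11, a peptide that CT26 colorectal tumor cells present on MHC class I, and the question was how cells of high and low avidity differ in tumors that progress or regress under treatment. TetHighProg held cells that bound much tetramer (high avidity) from progressing tumors, TetLowProg held cells that bound little (low avidity) from progressing tumors, and TetLowReg held low avidity cells from regressing tumors, with 3 libraries in each group. The replicates were numbered 1, 2 and 5 in TetHighProg, 6, 7 and 8 in TetLowReg, and 9, 10 and 12 in TetLowProg. All hosts were wildtype BALB/c mice bearing subcutaneous CT26.WT tumors, and all had received the PD-1 antibody RMP1-14 on days 3, 6 and 9, so no group was without antibody. Their age is not given in the sources used here. The study sorted both groups from progressing tumors out of the same tumors, while the labels do not say which libraries share one, and no group held high avidity cells from regressing tumors. Avidity can therefore be compared within progressing tumors, but a difference between TetLowReg and TetHighProg combines avidity with outcome and these cannot be told apart.

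A T cell needs a second signal beside its antigen receptor to divide and survive. CD28 and its relative ICOS deliver it through PI3-kinase, CD28 after binding CD80 or CD86 on an antigen-presenting cell, and the TNF receptor family members CD137 (Tnfrsf9), OX40 (Tnfrsf4), GITR (Tnfrsf18) and CD27 deliver it through TRAF adaptors and NF-kB. CD40 ligand, mostly on activated CD4+ T cells, engages CD40 on B cells, dendritic cells and macrophages and raises CD80 and CD86 there. CD137, OX40 and GITR are known as receptors that T cells raise after activation, whereas CD27 and CD28 are already present on naive T cells.

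Several members lie side by side in the genome (GRCm39). Tnfrsf4 (ENSMUSG00000029075, chromosome 4, 156098293 to 156101069, plus strand) and Tnfrsf18 (ENSMUSG00000041954, chromosome 4, 156110621 to 156113352, plus strand) were 9.55 kb apart with no coding gene between them, and Tnfrsf9 (ENSMUSG00000028965, chromosome 4, 150999019 to 151030559, plus strand) lay on the same chromosome. Cd28 (ENSMUSG00000026012, chromosome 1, 60755959 to 60812518, plus strand) and Icos (ENSMUSG00000026009, chromosome 1, 61017086 to 61039479, plus strand) flanked Ctla4, the inhibitory receptor for the same ligands as CD28. Cd86 (ENSMUSG00000022901, chromosome 16, 36424044 to 36486443, minus strand) and Cd80 (ENSMUSG00000075122, chromosome 16, 38275923 to 38316697, plus strand) were on one chromosome with 23 coding genes between them. The others were Cd27 (ENSMUSG00000030336, chromosome 6, 125209585 to 125213988, minus strand), Cd40lg (ENSMUSG00000031132, chromosome X, 56257405 to 56269902, plus strand) and Cd40 (ENSMUSG00000017652, chromosome 2, 164897544 to 164914868, plus strand).

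The promoters of the TNF receptor genes are shown because these 4 genes of one family were not all found in the same libraries. Every library with Tnfrsf9, Tnfrsf4 or Tnfrsf18 also had Cd27. Whether promoters bear on detection was not tested. RefSeq promoter sequences (GRCm38.p6, another build than that of the counts, 250 bases before to 50 after a start) matched 5 of the 10 members. Capitals mark letters that match an NF-kB motif, the AP-1 motif TGANTCA or the NFAT core GGAAA, each searched on both strands. The 4 lines give Tnfrsf9 at the second of its listed starts (chr4:150927749-150928048, plus strand), Tnfrsf4 (chr4:156013445-156013744, plus strand), Tnfrsf18 (chr4:156026072-156026371, plus strand) and Cd27 (chr6:125236978-125237277, minus strand).
Tnfrsf9: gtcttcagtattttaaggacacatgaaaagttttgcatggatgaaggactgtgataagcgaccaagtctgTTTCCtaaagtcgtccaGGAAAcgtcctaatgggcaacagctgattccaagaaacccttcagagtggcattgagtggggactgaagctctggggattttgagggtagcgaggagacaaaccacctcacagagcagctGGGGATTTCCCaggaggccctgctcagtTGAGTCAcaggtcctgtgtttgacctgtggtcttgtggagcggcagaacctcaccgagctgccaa
Tnfrsf4: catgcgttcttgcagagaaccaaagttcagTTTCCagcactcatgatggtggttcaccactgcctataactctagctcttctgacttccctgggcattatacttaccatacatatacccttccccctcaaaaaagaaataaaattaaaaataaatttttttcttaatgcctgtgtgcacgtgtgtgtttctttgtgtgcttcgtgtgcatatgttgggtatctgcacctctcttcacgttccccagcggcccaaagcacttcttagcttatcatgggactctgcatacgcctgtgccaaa
Tnfrsf18: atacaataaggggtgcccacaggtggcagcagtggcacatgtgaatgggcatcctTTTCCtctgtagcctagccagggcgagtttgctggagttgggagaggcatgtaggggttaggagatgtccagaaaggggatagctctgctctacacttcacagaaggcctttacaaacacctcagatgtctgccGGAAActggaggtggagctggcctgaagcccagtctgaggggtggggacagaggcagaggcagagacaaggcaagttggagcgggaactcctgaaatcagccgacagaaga
Cd27: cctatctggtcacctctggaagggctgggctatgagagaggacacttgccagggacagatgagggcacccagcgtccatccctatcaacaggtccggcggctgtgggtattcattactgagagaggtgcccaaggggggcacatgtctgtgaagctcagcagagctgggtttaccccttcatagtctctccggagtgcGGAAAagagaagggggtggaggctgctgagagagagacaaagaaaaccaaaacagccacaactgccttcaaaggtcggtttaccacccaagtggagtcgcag
Of these 4 windows, the one of Tnfrsf9 held overlapping NF-kB matches starting at -43 and -42 from the start, together with an NFAT core at -38 inside them, and an AP-1 match at -15. The window at the first listed start of Tnfrsf9, not printed, held NFAT cores at -220 and -137 and no match to the other motifs. Tnfrsf4, Tnfrsf18 and Cd27 held NFAT cores only. Among 32851 promoters of the same length, 4.51% held the NF-kB motif, 7.81% the AP-1 motif and 61.3% the NFAT core. A match of letters is a description and not a binding site. The window of Cd80, also matched but not printed, held an AP-1 match at -42 and no match to the other motifs. Cd28, Icos, Cd40lg, Cd86 and Cd40 had no promoter sequence to search.

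The libraries differed strongly within each group. Gene counts ranged from 16405306 to 36429515 per library, but the genes with at least 10 counts, here called detected, ranged from 599 (TetHighProg replicate 2) to 8071 (TetLowProg replicate 9) of 32976. Replicates 1 and 2 of TetHighProg, replicate 6 of TetLowReg and replicate 10 of TetLowProg held between 1.82% and 3.94% of genes and the other 5 libraries between 9.65% and 24.5%. The sort for CD8+ T cells was checked on Cd8a and Cd8b1, and every library had at least 1 of the pair at 10 counts or more, while Cd8a was at 0 in TetLowProg replicate 10 and TetHighProg replicates 1 and 2 and Cd8b1 had 8 counts in TetLowReg replicate 6. B cell and MHC class II genes were found together in TetLowReg replicates 7 and 8 and TetLowProg replicate 12, and their values stand beside the results they touch. As the RNA was copied and amplified without molecular identifiers, every interval and limit below covers counting error only. In such bulk samples, fewer cells of a type and less RNA per cell cannot be told apart.

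How many of the 10 genes a library held followed its group less than the library itself. TetHighProg held 2, 0 and 5 members in replicates 1, 2 and 5. TetLowReg held 1, 8 and 7 in replicates 6, 7 and 8, and TetLowProg held 5, 1 and 7 in replicates 9, 10 and 12. The 3 groups overlapped, and the 4 libraries with 0 to 2 members were those in which the fewest genes of any kind were detected. Counting from 100 counts, or after thinning every library to the depth of the smallest, gave the same numbers of members in all 9 libraries. A gene at 0 counts in a library could have stood at up to 0.0824 CPM (counts scaled to a total of 1000000 gene counts) in the deepest library and 0.183 CPM in the shallowest, taking 3 counts as the limit.

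**Figure D1:**
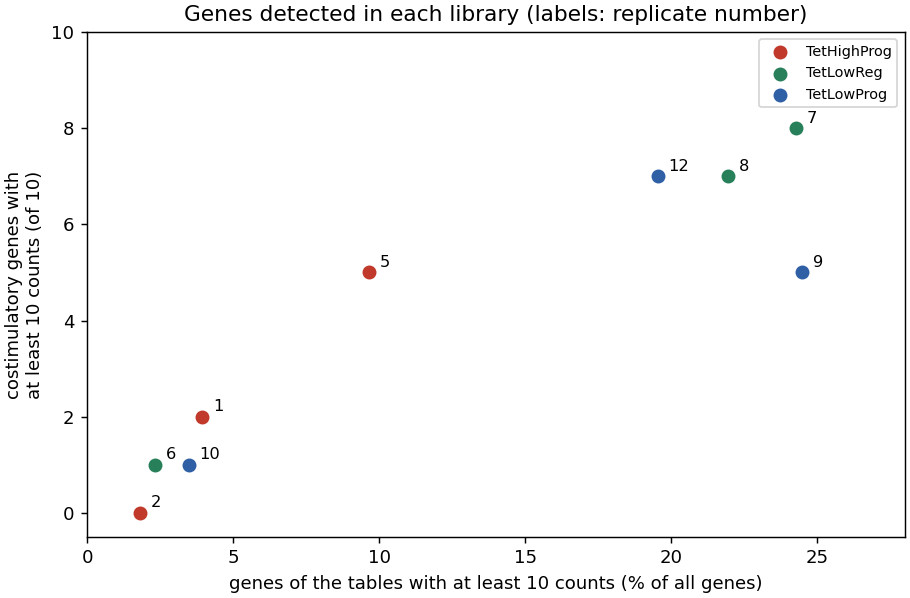
Number of the 10 costimulatory genes with at least 10 counts (vertical axis) against the percentage of all genes with at least 10 counts (horizontal axis), 1 point per library, colored by group and labelled with the replicate number. Libraries with 1.82% to 3.94% of genes detected held 0 to 2 members, and the others held 5 to 8.

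The 10 genes together took between 7.90e-06% (95% Clopper-Pearson interval 9.56e-07% to 2.85e-05%, TetHighProg replicate 2) and 0.859% (0.855% to 0.863%, TetLowReg replicate 6) of gene counts. Cd28 alone made up 98.8%, 100% and 100% of the members' counts in TetHighProg replicate 1, TetLowReg replicate 6 (all but 1 of 189307 counts) and TetLowProg replicate 10. In the 5 libraries with more genes detected its part was 75.5% in TetHighProg replicate 5 and 25.5% to 40.7% in the other 4.

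**Figure D2:**
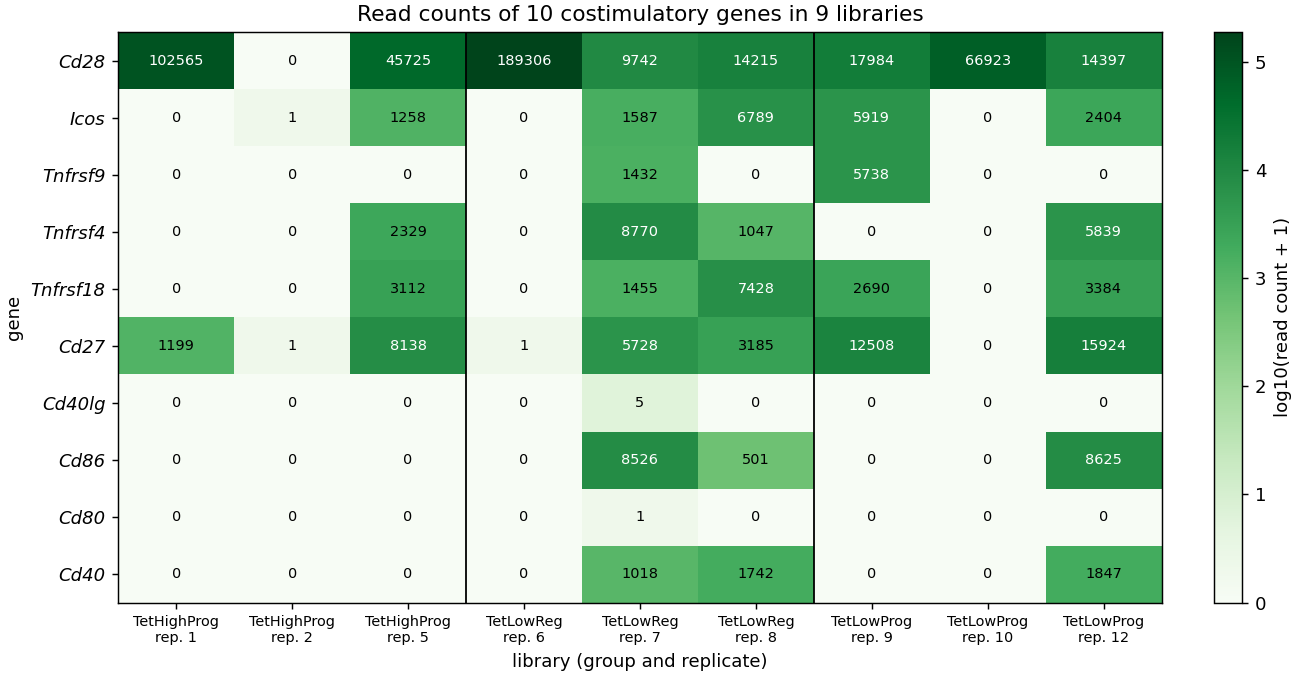
Read counts of the 10 genes (vertical axis) in the 9 libraries (horizontal axis), with the count printed in each cell and shaded by log10(count + 1), and black lines between the groups. Cd28 is present in 8 libraries, Cd86 and Cd40 share 3 libraries, and Cd40lg and Cd80 reach at most 5 counts.

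Cd28, the receptor that gives a naive T cell its second signal, was detected in 8 of 9 libraries, more than any other member. In TetHighProg it stood at 3069.9, 0 and 2015 CPM in replicates 1, 2 and 5. In TetLowReg it stood at 8589, 267 and 866 CPM in replicates 6, 7 and 8. In TetLowProg it stood at 495, 2662 and 457 CPM in replicates 9, 10 and 12. The highest library was TetLowReg replicate 6, the only library at 0 was TetHighProg replicate 2, and all 3 groups overlapped. TetHighProg averaged 1695 ± 1559.8 CPM (SD, n = 3), TetLowReg 3241 ± 4641 CPM and TetLowProg 1205 ± 1262 CPM. TetLowReg against TetHighProg gave a two-sided exact permutation p of 0.8, TetLowProg against TetHighProg 0.9 and TetLowProg against TetLowReg 0.7, where 3 libraries against 3 cannot go below 0.1.

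Cd28 ranked high among the detected genes wherever it was present, from rank 15 of 766 genes in TetLowReg replicate 6 to rank 369 of 6443 in TetLowProg replicate 12. Relative to Trac, the constant chain of the T cell receptor alpha gene, it had 3.70 counts per Trac count in TetHighProg replicate 1, 3.74 in TetLowReg replicate 6 and 3.39 in TetLowProg replicate 10. In the remaining 5 libraries with Trac the ratio was 0.924 to 2.59. Both genes were at 0 in TetHighProg replicate 2.

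Icos, the CD28 relative that binds ICOS ligand, was detected in 5 libraries, all of them among those with more genes detected. It stood at 0, 0.0395 and 55.4 CPM in TetHighProg replicates 1, 2 and 5, at 0, 43.6 and 414 CPM in TetLowReg replicates 6, 7 and 8, and at 163, 0 and 76.3 CPM in TetLowProg replicates 9, 10 and 12. Each group thus had at least 1 library at or near 0 and the groups overlapped. Pooled over the libraries of a group, Icos had 7.23 times as many counts per gene count in TetLowReg as in TetHighProg and 5.79 times as many in TetLowProg as in TetHighProg, with two-sided exact permutation p values of 0.7 and 0.4. The first ratio was 1.76 without TetLowReg replicate 8, 11.4 without TetLowReg replicate 7 and 4.27 without TetHighProg replicate 1. The second was 2.74 without TetLowProg replicate 9 and 3.41 without TetHighProg replicate 1, and TetHighProg replicate 5 held all but 1 of that group's counts. All Icos, Tnfrsf9, Tnfrsf18 and Tnfrsf4 counts of TetLowReg, and all but 1 of its 8914 Cd27 counts, came from replicates 7 and 8. Their summed B cell markers stood at 889.99 and 965 CPM against 0 in replicate 6, and they had 8004 and 7234 genes detected against 766. TetHighProg replicate 5, with a B cell sum of 0, held Icos (55.4 CPM), Tnfrsf18 (137 CPM), Tnfrsf4 (103 CPM) and Cd27 (359 CPM). TetLowProg replicate 9, where Ighm was the only B cell marker, held Icos (163 CPM), Tnfrsf9 (158 CPM), Tnfrsf18 (74.0 CPM) and Cd27 (344 CPM) but no Tnfrsf4. The part of other cells in the TetLowReg counts was not tested. Per kb of exon, Cd28 exceeded Icos in each of the 5 libraries with both, by 20.4 times in TetHighProg replicate 5 and by 1.17 to 3.44 times in the low avidity libraries.

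Among the TNF receptors, Cd27, present on naive and memory T cells, was detected most often, in 6 libraries. Its level was 35.9, 0.0395 and 359 CPM in TetHighProg replicates 1, 2 and 5, then 0.0454, 157 and 194 CPM in TetLowReg replicates 6, 7 and 8, and 344, 0 and 506 CPM in TetLowProg replicates 9, 10 and 12. TetLowProg replicate 12 was highest and TetHighProg replicate 5 lay above both detected TetLowReg libraries. The means of 132 ± 198, 117 ± 103 and 283 ± 258 CPM (SD, n = 3) for TetHighProg, TetLowReg and TetLowProg differed by less than the larger SD of each pair, with two-sided exact permutation p values of 0.9, 0.7 and 0.5 for TetLowReg against TetHighProg, TetLowProg against TetHighProg and TetLowProg against TetLowReg. Per kb of exon, Cd27 exceeded Cd28 in TetLowReg replicate 7 (1.54 times) and TetLowProg replicates 9 and 12 (1.82 and 2.89 times), and lay below it in TetHighProg replicates 1 and 5 (0.0305 and 0.465 times) and TetLowReg replicate 8 (0.585 times).

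Tnfrsf18, encoding GITR, was detected in the same 5 libraries as Icos. TetHighProg replicate 5 stood at 137 CPM with 0 counts in replicates 1 and 2, TetLowReg replicates 7 and 8 at 39.9 and 453 CPM with 0 in replicate 6, and TetLowProg replicates 9 and 12 at 74.0 and 107 CPM with 0 in replicate 10. The groups overlapped, and the 2 TetLowReg libraries with the gene lay below and above every other detected library. The exact permutation p (two-sided) was 0.7, 1 and 0.9 for TetLowReg against TetHighProg, TetLowProg against TetHighProg and TetLowProg against TetLowReg.

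Tnfrsf4, encoding OX40, was detected in 4 of those 5 libraries and was at 0 in TetLowProg replicate 9. It stood at 103 CPM in TetHighProg replicate 5, at 241 and 63.8 CPM in TetLowReg replicates 7 and 8, and at 185 CPM in TetLowProg replicate 12. All 3 groups had libraries with and without it, and TetLowProg replicate 12, with the highest B cell marker sum (1528 CPM), held all Tnfrsf4 counts of its group. In TetHighProg replicate 5 the B cell marker sum was 0. Although Tnfrsf4 and Tnfrsf18 are neighbors, their ratio was not constant. Per kb of exon, Tnfrsf18 was 1.20 times Tnfrsf4 in TetHighProg replicate 5, 0.149 times in TetLowReg replicate 7, 6.39 times in TetLowReg replicate 8 and 0.522 times in TetLowProg replicate 12. The 2 TetLowReg libraries thus lay at both ends of that range.

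Tnfrsf9, encoding CD137, was detected in only 2 libraries. TetLowReg replicate 7 had 1432 counts (39.3 CPM) and TetLowProg replicate 9 had 5738 counts (158 CPM), and the other 7 libraries had 0. The pooled level was at least 519-fold higher in TetLowReg and at least 1675-fold higher in TetLowProg than in TetHighProg when the 0 of TetHighProg is set at 3 counts over the group, but each of these values rests on 1 library. Without TetHighProg replicate 1 the bounds were 306-fold and 988-fold, and without TetLowProg replicate 12 the latter was 2533-fold. The two-sided exact permutation p was 1 in both comparisons. Tnfrsf9 did not pass the edgeR filter on low counts at its default. Without the filter its log2 fold change against TetHighProg was 12.09 in TetLowReg (SE 6.48, edgeR adjusted p = 0.386) and 12.55 in TetLowProg (SE 6.59, edgeR adjusted p = 0.445), both fitted against a group at 0.

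Cd40lg, the TNF family ligand of CD40, had 5 counts in TetLowReg replicate 7 and 0 in the other 8 libraries. No library reached 10 counts. Cd4, the coreceptor of the T cells best known for making CD40 ligand, had 2020 counts in the same library, 42 in TetLowReg replicate 8, 2 in TetLowProg replicate 12 and 0 elsewhere.

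Cd86, a ligand of CD28 and CTLA-4 on antigen-presenting cells, was detected in 3 libraries. TetLowReg replicate 7 had 8526 counts (234 CPM), replicate 8 had 501 (30.5 CPM), TetLowProg replicate 12 had 8625 counts (274 CPM), and the remaining 6 libraries, with all of TetHighProg, had 0. Cd40, the receptor for CD40 ligand, was detected in exactly the same libraries with 1018 counts (27.9 CPM) in TetLowReg replicate 7, 1742 (106 CPM) in replicate 8 and 1847 (58.6 CPM) in TetLowProg replicate 12. Both low avidity groups also had libraries at 0, so they overlapped TetHighProg. Cd80, the other B7 ligand, had 1 count in TetLowReg replicate 7 and 0 elsewhere, so nearly all CD28 ligand RNA counted in these libraries was that of Cd86. Per kb of exon, Cd86 was 7.42 times Cd40 in TetLowReg replicate 7, 0.255 times in TetLowReg replicate 8 and 4.14 times in TetLowProg replicate 12.

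The libraries with Cd86 and Cd40 were also those with B cell and class II genes. Summed over 6 B cell markers (among them Cd79a, Cd79b and Ms4a1), they held 889.99 to 1528 CPM with 5 or 6 markers detected, against 0 to 242 CPM and at most 1 marker (Ighm) in the other 6 libraries. Cd79a, part of the B cell receptor, had 4971 counts in TetLowReg replicate 7, 1737 in replicate 8, 5137 in TetLowProg replicate 12 and 0 elsewhere. Summed over 7 class II genes the levels were 39282 to 60634 CPM against 0.119 to 1482 CPM. By group the B cell sum ran from 0 to 0.0395 CPM in TetHighProg, 0 to 965 CPM in TetLowReg and 0 to 1528 CPM in TetLowProg, and the class II sum from 0.569 to 1482, 0.907 to 47642 and 0.119 to 60634 CPM.

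The other lists divided the libraries less uniformly. For 12 macrophage, monocyte and dendritic cell markers the sum was 1655 to 8983 CPM with 3 to 6 detected in the libraries with Cd86 and Cd40, against 0 to 1777 CPM and at most 3 detected in the others, so the sums overlapped. Lyz2, the lysozyme of myeloid cells, made up 8222 of 8983 CPM in TetLowReg replicate 7 and stood at 1182 CPM in TetLowReg replicate 8 and 574 CPM in TetLowProg replicate 12, but it was also the whole sum of 1543 CPM in TetHighProg replicate 1. Cd68 had 6085 counts in TetLowReg replicate 7. C1qa was at 0 in all 9 libraries and Csf1r had at most 9 counts, while Itgax reached 475 counts in TetLowReg replicate 8. In TetHighProg, TetLowReg and TetLowProg this sum ran from 0 to 1543, 0.272 to 8983 and 1528 to 2110.2 CPM. Ccr7, which naive and memory T cells also express, made up 1761 of 1777 CPM in TetLowProg replicate 9, the whole sum in replicate 10 and 1489 of 2110.2 CPM in replicate 12. Of 4 erythroid genes, 3 were detected in each of the 3 libraries and none in the other 6. The 10 CD8 T cell markers summed to 1087 to 2864 CPM in the libraries with Cd86 and Cd40, with 8 to 10 detected, and to 4226 to 8380.4 CPM in the others, with 3 to 10 detected. For 6 CT26 tumor and stroma markers the sum was 8.59 to 35.0 CPM in the libraries with Cd86 and Cd40 and 0.181 to 387 CPM in the others, highest in TetHighProg replicate 1. For 5 CD4 T cell and Treg markers the sum was 71.2 to 82.8 CPM against 0 to 241 CPM, where the highest value was Ctla4 alone in TetLowProg replicate 9. The part of other cells in the Cd86 and Cd40 counts was not tested.

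**Figure D3:**
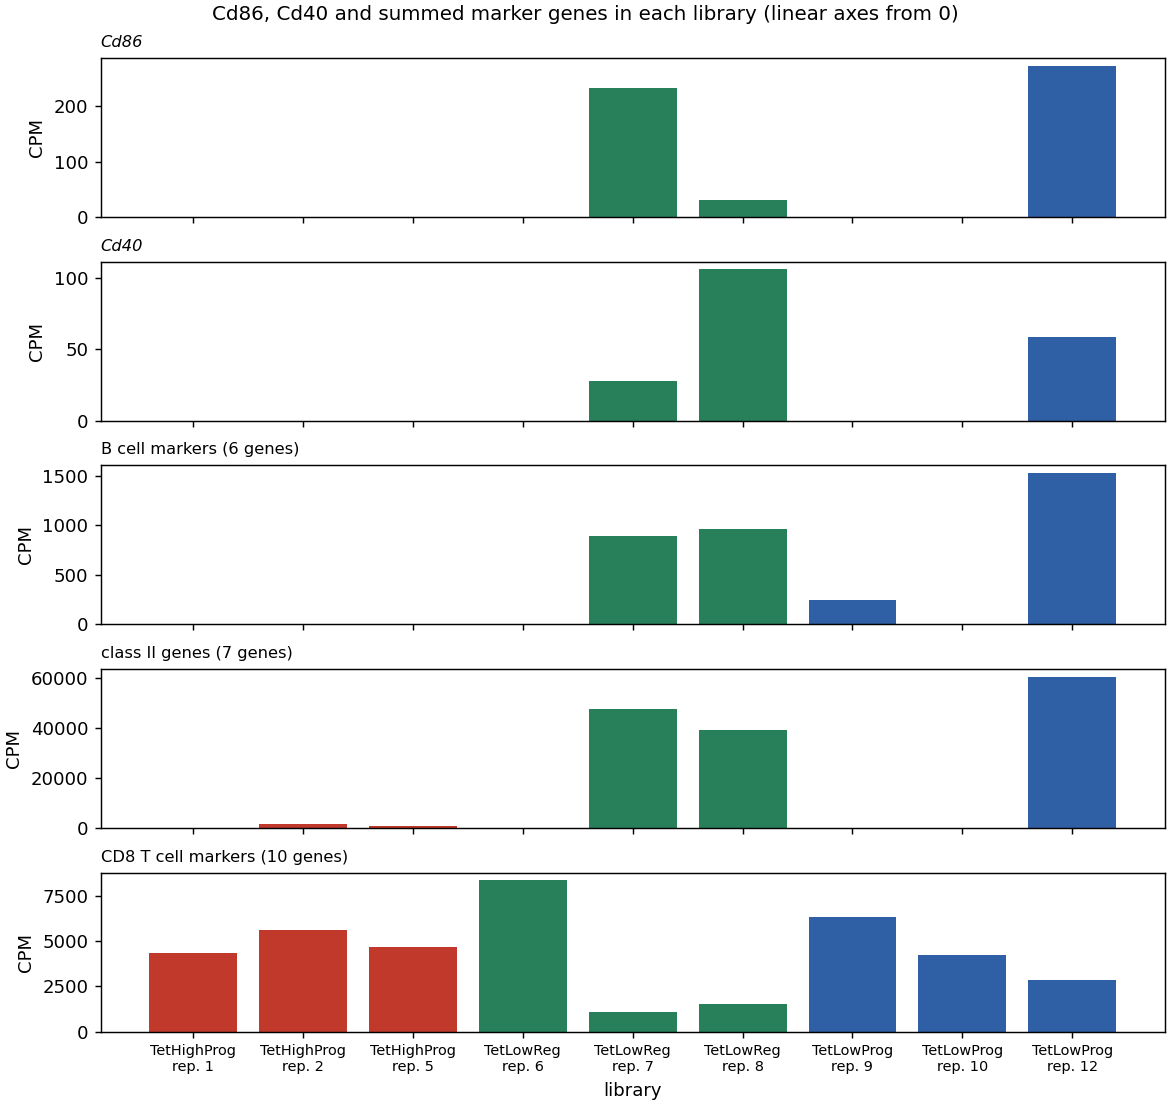
CPM of Cd86 and Cd40 and summed CPM of the B cell, MHC class II and CD8 T cell lists (5 panels, linear axes from 0) in each of the 9 libraries, colored by group. TetLowReg replicates 7 and 8 and TetLowProg replicate 12 carry Cd86, Cd40 and B cell and class II sums above the other libraries, with CD8 T cell sums of 1087 to 2864 CPM below the other libraries.

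Per kb of exon, the order of the members' levels changed from library to library. Cd28 led in TetHighProg replicates 1 and 5 (501 and 329 CPM per kb), where Cd27 followed at 15.3 and 153 CPM per kb. Tnfrsf4 led in TetLowReg replicate 7 (175 CPM per kb), Tnfrsf18 in TetLowReg replicate 8 (297 CPM per kb), and Cd27 in TetLowProg replicates 9 and 12 (147 and 216 CPM per kb). TetLowReg replicate 6 and TetLowProg replicate 10 held Cd28 alone. By group mean, Cd28 was first in every group, where TetHighProg averaged 277 ± 255 CPM per kb (SD, n = 3), TetLowReg 529 ± 758 and TetLowProg 197 ± 206. In second place came Cd27 in TetHighProg (56.1 ± 84.3) and TetLowProg (121 ± 110.2) and Tnfrsf18 in TetLowReg (108 ± 164). No pair of neighbors in these orders differed by more than the larger of their SDs.

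**Figure D4:**
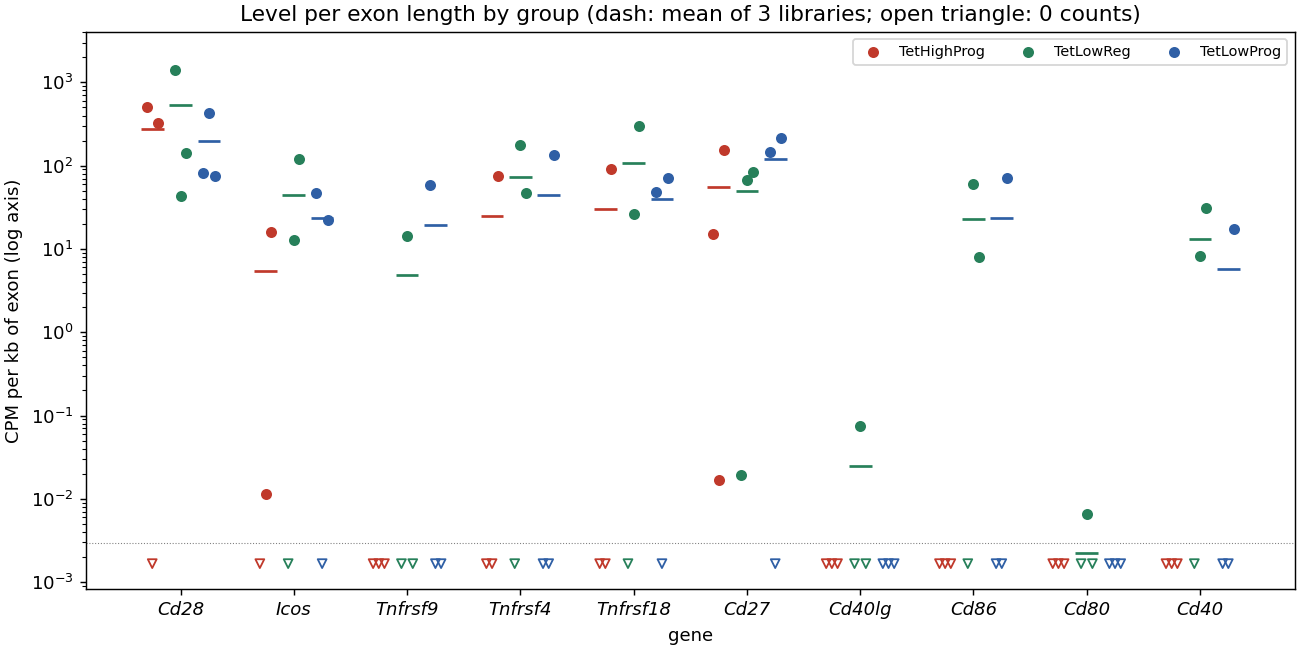
CPM per kb of exon (log axis) of each gene in the 3 groups, 1 point per library, with a dash at the mean of 3 libraries and open triangles for libraries at 0 counts. Every gene has at least 1 library at 0, and for each detected gene the points of the groups overlap.

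All 3 group comparisons were tested across genes with edgeR's quasi-likelihood test, and calls needed both an adjusted p (Benjamini-Hochberg) under 0.05 and a log2 fold change above 2 in size. Of the 10 members 7 passed the filter on low counts, with 5813 genes in all, and Tnfrsf9, Cd40lg and Cd80 did not. A gene could pass through a group in which it was high, so the counts of directions below describe those 7 and not all members. TetHighProg served as control in 2 comparisons, which therefore share libraries.

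TetLowReg against TetHighProg compared low avidity cells from regressing tumors with high avidity cells from progressing tumors. edgeR called 0 of 7 members and 0% of all 5813 genes. All 7 fitted log2 fold changes were positive, as were 4225 of the 5813 genes tested, with a median of 2.53 against 4.82 over all genes. The sign of Cd27 was not stable, with values of -0.17 by library size and -0.77 by DESeq2 with poscounts, and its mean CPM was lower in TetLowReg. Cd28 was at -1.17 without TetLowReg replicate 6, and Tnfrsf18 at -0.12 without TetLowReg replicate 8. Without TetLowReg replicates 7 and 8 and TetLowProg replicate 12, Icos, Tnfrsf4, Tnfrsf18 and Cd27 lay between -13.18 and -11.41. That fit left replicate 6 as the only TetLowReg library, with 0 counts of Icos, Tnfrsf4 and Tnfrsf18 and 1 of Cd27. A group at or near 0 made these values negative, and their size depends on the prior count. At an unadjusted p under 0.05, 2 members (Cd86 and Cd40) were higher and none lower, against 19.0% and 0.516% of all genes. Cd86 had a log2 fold change of 15.01 (SE 6.91, edgeR adjusted p = 0.233) and Cd40 of 13.65 (SE 6.71, edgeR adjusted p = 0.233), both fitted against a group at 0 and so dependent on the prior count. As bounds from pooled counts, Cd86 was at least 3272-fold and Cd40 at least 1000.4-fold higher in TetLowReg, each in 2 of 3 libraries. The bound of Cd86 was 354-fold without TetLowReg replicate 7 and 1929-fold without TetHighProg replicate 1, and that of Cd40 was 473-fold without TetLowReg replicate 8 and 590-fold without TetHighProg replicate 1. Icos (3.60 ± 4.58), Tnfrsf4 (2.53 ± 4.39), Tnfrsf18 (2.39 ± 4.29), Cd28 (0.86 ± 2.31) and Cd27 (0.58 ± 3.71) had log2 fold changes smaller than their SEs. Not 1 of the 7 had libraries that did not overlap between the groups, against 5.80% of all genes.

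The call depended on the test. DESeq2 with 3 groups in one model called Cd86 and Cd40 in TetLowReg against TetHighProg with default or poscounts size factors, beside 29.4% and 17.8% of all genes. With limma-voom, 5 members were called (Icos, Tnfrsf4, Tnfrsf18, Cd86 and Cd40), beside 41.5% of all genes. DESeq2 on the 2 groups alone called 0 of the 5 members left by the filter (2.57% of genes), and without that filter it called Cd86 and Cd40 (7.11% of genes). In edgeR without TetLowReg replicates 7 and 8 and TetLowProg replicate 12, neither Cd86 nor Cd40 had a count in any library left.

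TetLowProg against TetHighProg compared avidity within progressing tumors. edgeR called 0 of 7 members and 0% of all genes tested. The fitted log2 fold changes had a median of 1.07 against 5.40 over all genes, and 6 were positive. Signs changed without TetLowProg replicate 12 for Tnfrsf4 (-12.59) and Tnfrsf18 (-0.33), and without TetHighProg replicate 1 for Cd28 (0.46). With DESeq2 poscounts Tnfrsf18 was at -0.84 and Cd27 at -0.62. At an unadjusted p under 0.05, only Cd86 was higher and none lower, against 24.8% and 0.550% of all genes. Its log2 fold change was 14.27 (SE 6.74, edgeR adjusted p = 0.193), and it rested on TetLowProg replicate 12, without which Cd86 and Cd40 were at 0 in both groups. Cd40 had a log2 fold change of 12.05 (SE 6.32, edgeR adjusted p = 0.194). The pooled bounds were at least 2518-fold for Cd86 and at least 539-fold for Cd40. They were 1485-fold and 318-fold without TetHighProg replicate 1, and 4133-fold and 885-fold without TetLowProg replicate 9. The other 5 members lay between -0.54 (Cd28) and 1.93 (Icos) with SEs of 2.30 to 4.28. The libraries of the groups overlapped for all 7, while 7.17% of all genes had no overlap. DESeq2 on all 3 groups called Cd86 and Cd40 with either kind of size factor, beside 35.6% (default) and 18.7% (poscounts) of genes, and limma-voom called Icos, Tnfrsf18 and Cd86 beside 49.9% of genes. On the 2 groups alone the filter left 4 members, of which DESeq2 gave a p for Cd28 and Icos and called neither (5.78% of genes). It called 0 without the filter (16.1% of genes), where only Cd28, Icos and Cd27 were given a p.

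TetLowProg against TetLowReg compared low avidity cells between outcomes. edgeR called 0 of 7 members and 0% of all genes, and no member reached an unadjusted p under 0.05 in either direction (0.430% of genes higher and 0.499% lower). The median log2 fold change was -1.46 against 0.35 over all genes, and 6 of 7 values were negative. The largest in size was that of Tnfrsf18 (-1.99, SE 4.23, edgeR adjusted p = 0.99997), and Cd27 alone was positive (0.50, SE 3.70). Pooled counts gave ratios from 0.375 (Cd28) to 3.23 (Tnfrsf9), and both ends rested on single libraries. Tnfrsf9 was found in 1 library of each group, and TetLowReg replicate 6 held 189306 of the 213263 Cd28 counts of its group. Without that library the log2 fold change of Cd28 was 0.63 in place of -1.39. Icos (0.88) and Tnfrsf18 (0.68) turned positive without TetLowReg replicate 8, and Tnfrsf4 (0.88) and Cd86 (2.50) without TetLowReg replicate 7. Cd27 turned negative (-0.17) without TetLowProg replicate 12. The groups overlapped for all members, against 3.42% of genes without overlap, and 0 members were called by DESeq2 with default (0.464% of genes) or poscounts (0.310%) size factors, by limma-voom (0%), or by DESeq2 on the 2 groups with the filter (0.0546%) or without it (0.0638%). DESeq2 gave no p for Cd28 with poscounts or on the 2 groups. Each of the 7 log2 fold changes was smaller in size than its own SE.

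**Figure D5:**
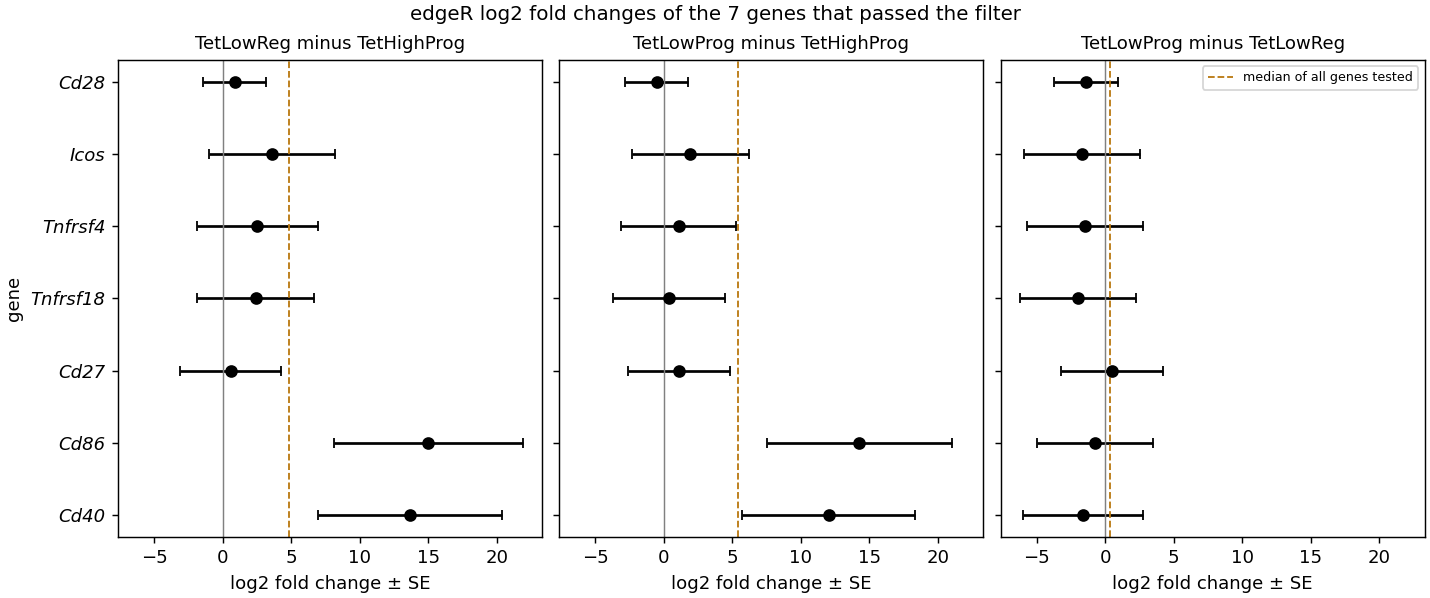
Fitted edgeR log2 fold changes (horizontal axis) of the 7 members that passed the filter (vertical axis) in the 3 comparisons, with bars of 1 SE, a grey line at 0 and a dashed line at the median of all genes tested. The bars of Cd28, Icos, Tnfrsf4, Tnfrsf18 and Cd27 cross 0 in every panel, and those of Cd86 and Cd40 lie to the right of 0 in both comparisons with TetHighProg.

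The direct binding partners of the members were sparse. Tnfsf9, the ligand of CD137, was detected only in TetLowProg replicate 9 (1100 counts, 30.3 CPM), which was also 1 of the 2 libraries with Tnfrsf9. Tnfsf4, the ligand of OX40, was found only in TetLowReg replicate 7 (2134 counts, 58.6 CPM), the library with the highest Tnfrsf4. Icosl, the ligand of ICOS, had 897 counts in TetLowReg replicate 7 and 993 in TetLowProg replicate 12. Cd70, the ligand of CD27, was at 0 throughout, and Tnfsf18, the ligand of GITR, had 1 count in TetLowProg replicate 12. Ctla4, which competes with CD28 for CD80 and CD86, stood at 7.49 and 41.6 CPM in TetLowReg replicates 7 and 8, at 241 and 22.7 CPM in TetLowProg replicates 9 and 12, and at 0 in the other 5 libraries, all of TetHighProg among them.

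Over the wider list of 21 ligands and receptors that pair with a member or act beside one, 0 to 2 were detected in TetHighProg libraries, 1 to 10 in TetLowReg and 0 to 13 in TetLowProg, and 5 reached 10 counts nowhere. edgeR tested 9 and called 0 in each comparison. At an unadjusted p under 0.05, 3 were higher and 1 lower in TetLowReg than TetHighProg, 4 higher and 0 lower in TetLowProg than TetHighProg, and 0 either way between the low avidity groups. Over all genes the shares were 19.0% higher and 0.516% lower in TetLowReg, and 24.8% and 0.550% in TetLowProg. Cd2, an adhesion receptor that also costimulates, was the only partner that was detected in every TetLowReg library, at 3249, 269 and 243 CPM in replicates 6, 7 and 8, and it had at most 1 count in TetHighProg. Its log2 fold change was 16.18 (SE 5.45, edgeR adjusted p = 0.233), with no overlap between the groups. Tnfsf8, the ligand of CD30, also had none, with 4, 4687 and 1 counts in TetLowReg replicates 6, 7 and 8 and 0 in TetHighProg, and 5.80% of all genes had none. In TetLowProg Cd2 stood at 166, 0 and 426 CPM in replicates 9, 10 and 12. Cd226, an activating receptor for nectin-like ligands, had a negative value, with 0, 2713 and 496 CPM in TetHighProg replicates 1, 2 and 5 against 0, 0 and 3.90 CPM in TetLowReg, a log2 fold change of -10.11 (SE 4.30, edgeR adjusted p = 0.233). Its TetLowProg libraries stood at 197, 0.0398 and 1.94 CPM in replicates 9, 10 and 12, with a log2 fold change of -5.32 against TetHighProg (SE 3.50, edgeR adjusted p = 0.286). Tnfrsf1b, encoding TNF receptor 2, was at 263 CPM in TetHighProg replicate 5 and 198 CPM in TetLowProg replicate 9, and at most 6.03 CPM elsewhere. The remaining genes with an unadjusted p under 0.05, chosen for mention after their values were seen, were Tnfsf8 and Slamf6 in TetLowReg and Cd2, Ctla4, Cd48 and Slamf1 in TetLowProg, all higher than in TetHighProg.

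Of 18 adaptors and kinases that act downstream of these receptors, edgeR tested 15 and called 0 in each comparison. At an unadjusted p under 0.05, 2 were higher in TetLowReg than TetHighProg (Map3k14, encoding the kinase NIK, and Birc2), 9 were higher in TetLowProg than TetHighProg and none was lower, and 0 passed that threshold between the low avidity groups. Of all genes, 19.0% were higher at that threshold in TetLowReg and 24.8% in TetLowProg. TetHighProg libraries held 1 to 5 of the 18, TetLowReg 2 to 14 and TetLowProg 4 to 17. Pik3r1, the regulatory subunit of PI3-kinase, was found in 8 libraries like Cd28, at 251, 2259 and 733 CPM in TetHighProg replicates 1, 2 and 5 and at 5325, 243 and 374 CPM in TetLowReg replicates 6, 7 and 8. In TetLowProg it stood at 103, 0.278 and 529.7 CPM in replicates 9, 10 and 12. Prkcq, the kinase that links CD28 to NF-kB, stood at 550.1, 20.1 and 287 CPM in TetLowProg replicates 9, 10 and 12 and at most 11.2 CPM in the other groups (edgeR adjusted p = 0.361 against TetHighProg and 0.99997 against TetLowReg). Traf1, an adaptor of the TNF receptors, was detected in 6 libraries at 29.8 to 248 CPM, and Grb2 in 6 at 6.90 to 268 CPM, with libraries of each group at 0 or overlapping.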

How the data were processed

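RNA of 9 samples was sequenced after Smart-seq2 amplification. The authors deposited unnormalized counts of reads on each gene in a table for each library, aligned to GRCm39 with STAR 2.7.6a. The study's methods name featureCounts, whereas the layout is that of STAR's own counts, and the annotation release is not given in the sources used here. Of reads on either strand, 50.2% to 50.8% fell on 1 strand, so unstranded counts were used. Of 32976 identifiers, 28645 were matched to GENCODE names and coordinates of the same build, and 4 summary lines per table were left out. CPM is counts scaled to a total of 1000000 gene counts, and CPM per kb divides by the length of the union of exons.

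Genes were tested with edgeR 4.0.16 in R 4.3.3 (TMM factors 0.602 to 1.66, default filter, prior count 0.125, 3 groups in one model, no covariate). The common dispersion was 8.12. Alternatives were other filters and normalizations, DESeq2 1.42.0, limma-voom (limma 3.58.1), no fold threshold, 2 groups alone, and each library left out. The fits were tested on simulated counts. With little spread between libraries all 3 tools recovered the raised genes, whereas with a spread near the common dispersion edgeR and limma-voom recovered none and DESeq2 called more unchanged than raised genes. The simulation gave every gene and library the same spread and did not copy the libraries with few genes detected. It therefore cannot show how the tools behave on these data. Single values were compared by exact permutation (two-sided, SciPy 1.17.1). Figures and summaries used matplotlib 3.10.9 and pandas 2.3.3 in Python 3.11.15. No replicate pair held near-identical counts, with 0 to 7 identical values among the genes with 10 or more counts in either library. The study's text names as many tumors of each outcome as a group has libraries, but the labels do not tie libraries to tumors or mice, so p-values measure the spread between libraries, which may be technical.

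The members, partners, adaptors and markers were chosen with earlier results of these data known. Named were all members, the direct partners of members, listed genes with at least 10 counts in 5 libraries or more, and the 3 genes most alike to each member detected in 4 libraries or more. Values of 2 listed genes are not reported here.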

Additional observations from a re-analysis of the deposited data

How the results depend on the processing

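No paired analysis was possible because the groups share no replicate number in the labels. edgeR called 0 members in every comparison under each other filter, normalization, fold rule and 2-group fit, beside 0% to 0.0791% of all genes tested. It also called 0 with each library left out, beside 0% to 0.0576% of all genes tested. The strict filter left only Cd28 to be tested, and the 2-group fits against TetHighProg left 5 (TetLowReg) and 4 (TetLowProg) members without Cd86 and Cd40, which could not be called there. The number called moved with the tool. For TetLowReg against TetHighProg it was 2 with DESeq2 (default or poscounts size factors, beside 29.4% and 17.8% of genes). It was 2 with DESeq2 on 2 groups without edgeR's filter (7.11% of genes), and 5 with limma-voom (41.5%). For TetLowProg against TetHighProg it was 2 with DESeq2 (default or poscounts size factors, beside 35.6% and 18.7% of genes) and 3 with limma-voom (49.9%). At a minimum of 1 count, 2 members were found in TetHighProg replicate 2, 2 in TetLowReg replicate 6 and 10 in TetLowReg replicate 7.

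Log2 fold changes changed sign as follows, and the cause was not tested. For TetLowReg against TetHighProg, Cd27 was -0.17 with library size and -0.77 with DESeq2 poscounts. For TetLowProg against TetHighProg, poscounts gave -0.84 for Tnfrsf18 and -0.62 for Cd27, and limma-voom gave 4.69 for Cd28. For TetLowProg against TetLowReg, Cd86 was 0.049 with library size. Of the fits chosen after seeing the data, leaving out the 4 libraries with few genes detected gave -1.26 for Cd28 and -0.32 for Cd27 in TetLowReg against TetHighProg and -0.59 for Tnfrsf18 in TetLowProg against TetHighProg. Leaving out the 3 libraries with B cell and class II genes left TetLowReg replicate 6 as its group's only library, taken to vary like the other groups. It gave -11.88 for Icos, -12.77 for Tnfrsf4, -13.18 for Tnfrsf18 and -11.41 for Cd27 in TetLowReg against TetHighProg, -12.77 for Tnfrsf4 and -0.40 for Tnfrsf18 in TetLowProg against TetHighProg, and 13.92 for Icos and 12.78 for Tnfrsf18 in TetLowProg against TetLowReg.

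With each library left out, the values that changed sign were these. Log2 fold changes of TetLowReg against TetHighProg ran from -1.17 to 2.02 (Cd28, lowest without TetLowReg replicate 6), -0.12 to 15.47 (Tnfrsf18, lowest without TetLowReg replicate 8) and -0.10 to 3.11 (Cd27, lowest without TetLowReg replicate 7). Those of TetLowProg against TetHighProg ran from -2.21 to 0.46 (Cd28, highest without TetHighProg replicate 1), -12.59 to 13.74 (Tnfrsf4, lowest without TetLowProg replicate 12) and -0.33 to 13.42 (Tnfrsf18, lowest without TetLowProg replicate 12). Those of TetLowProg against TetLowReg ran from -3.22 to 0.63 (Cd28, highest without TetLowReg replicate 6), -2.36 to 0.88 (Icos, highest without TetLowReg replicate 8), -15.11 to 0.88 (Tnfrsf4, highest without TetLowReg replicate 7), -2.63 to 0.68 (Tnfrsf18, highest without TetLowReg replicate 8), -0.17 to 1.37 (Cd27, lowest without TetLowProg replicate 12) and -14.97 to 2.50 (Cd86, highest without TetLowReg replicate 7). Other values kept their sign but also moved. For TetLowReg against TetHighProg they ran from 1.31 to 12.24 (Icos), 0.24 to 15.17 (Tnfrsf4), 11.84 to 15.63 (Cd86) and 12.48 to 14.28 (Cd40), for TetLowProg against TetHighProg from 1.26 to 10.46 (Icos) and 0.35 to 3.57 (Cd27), and for Cd40 in TetLowProg against TetLowReg from -13.49 to -0.34. The bounds and ratios of pooled counts without a library were chosen after seeing the data. Alternatives gave no value where a gene was removed by the filter or was at 0 in both groups, as for Cd86 and Cd40 in TetLowProg against TetHighProg without TetLowProg replicate 12.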

Other observations

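For each member detected in 4 or more libraries, the genes with the most similar profile were taken by Pearson's r of log2(CPM + 1) over the 9 libraries, among 3990 genes. The libraries share their number of detected genes, so r is a description. Cd28 was most alike to Rbm4b (r = 0.987), Trac (0.982) and Micos10 (0.980), Icos to Clk4 (0.996), Ssr1 (0.996) and Shoc2 (0.991), and Tnfrsf4 to Knop1 (0.987), Pnn (0.985) and Ccndbp1 (0.982). Tnfrsf18 was most alike to C1d (0.997), Mkln1 (0.996) and Wdr18 (0.994), and Cd27 to Ran (0.992), Dusp1 (0.986) and Safb (0.983).

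As the counts carry no strand, a read on overlapping exons of 2 genes on opposite strands cannot be assigned to either. Reads ambiguous between genes, 1.05% to 1.96% of reads per library, stood in a summary line and not in the gene counts. Counts of an overlapped gene may therefore be too low. Gm16008, antisense to Tnfrsf4 and Tnfrsf18, had 24 counts in TetLowReg replicate 7, 218 in replicate 8 and 0 elsewhere. Vamp1, which overlaps Cd27 on the other strand, had at most 1742 counts (TetLowProg replicate 9). Timmdc1, which overlaps Cd80, had 1025 to 38822 counts in every library, where Cd80 had at most 1.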
